A study of Rattus norvegicus with 28 samples.

Results

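The change of gene expression between weeks 3 and 4 of exposure to injured spinal cord was followed in 7 of the 28 libraries of this rat series. They were chosen by label, as the 4 libraries of neural progenitor cells labelled as exposed to spinal cord injury for 4 weeks and 3 of the 4 labelled with the same exposure for 3 weeks. The remaining library, injured week 3 replicate 3, was left out because many expressed genes read 0 in it. Of 9636 genes for which each of the other 3 libraries of its group predicted at least 20 counts, it had 0 counts for 2755. For comparison, the text also uses 4 libraries each of cells exposed to spinal cord without mention of injury for 3 and for 4 weeks, read here as uninjured cord, and 4 libraries of cells kept in culture. No strain, age, genotype, added agent or clone is given for any group, nor is the event from which weeks are counted. It is also not given whether the cells were separated from the tissue around them or whether libraries came from separate animals, so p-values measure only the spread between these libraries, which may be technical.

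Neural progenitor cells divide and give rise to neurons, astrocytes and oligodendrocytes. In spinal cord injury research they are grafted to replace lost cells or to support the surviving tissue. An injured cord goes through inflammation, clearance of debris and scar formation over the weeks that follow, and grafted cells meet host immune, glial and vascular cells there. In bulk RNA from such material, more cells of a type and more RNA per cell cannot be told apart, nor can RNA of the progenitor cells and RNA of the tissue around them.

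The deposited table names genes by rat Ensembl identifier, and 0 of its 32545 identifiers matched a symbol in the gene table used here. The identity of the cells was therefore not checked against marker genes, and gene groups are described by their behaviour across libraries. The 3 week 3 libraries held 3147432 to 3489857 counts and detected 15292 to 15583 genes. The 4 week 4 libraries held 3671962 to 4467448 counts and detected 15198 to 15778 genes. Every week 4 library was thus deeper than every week 3 library, with mean totals of 3993000 and 3359000, so depth and week move together. Libraries correlated at a Spearman rho of 0.969 within week 3, of 0.937 to 0.982 within week 4 and of 0.746 to 0.859 between the weeks, across the genes tested. No library was a copy of another, since the chi-square statistic of each pair within a group was 6.44 to 32.8 times its degrees of freedom.

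Between week 3 and week 4 in injured cord, 4603 of 11836 genes changed, which is 38.9% of those tested (quasi-likelihood test of edgeR, adjusted p under 0.05 after Benjamini and Hochberg). Of these, 2611 rose (22.1% of genes tested) and 1992 fell (16.8%). The rises were larger than the falls. At least 2-fold changes were seen for 1835 genes that rose and 1122 that fell, at least 4-fold changes for 1023 and 242, and at least 8-fold changes for 530 and 41. The median log2 fold change was 1.52 among genes that rose and -1.08 among genes that fell, and -0.02 over all genes tested. With library depth as a covariate, 2318 genes changed, 1554 higher and 764 lower, and the part of depth in the result was not otherwise tested. With injured week 3 replicate 3 put back, 2736 genes changed, 1681 higher and 1055 lower. Upper quartile scaling, which moved the median of all genes to -0.16 on the log2 scale, turned the balance to 2237 higher and 2790 lower.

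**Figure D1:**
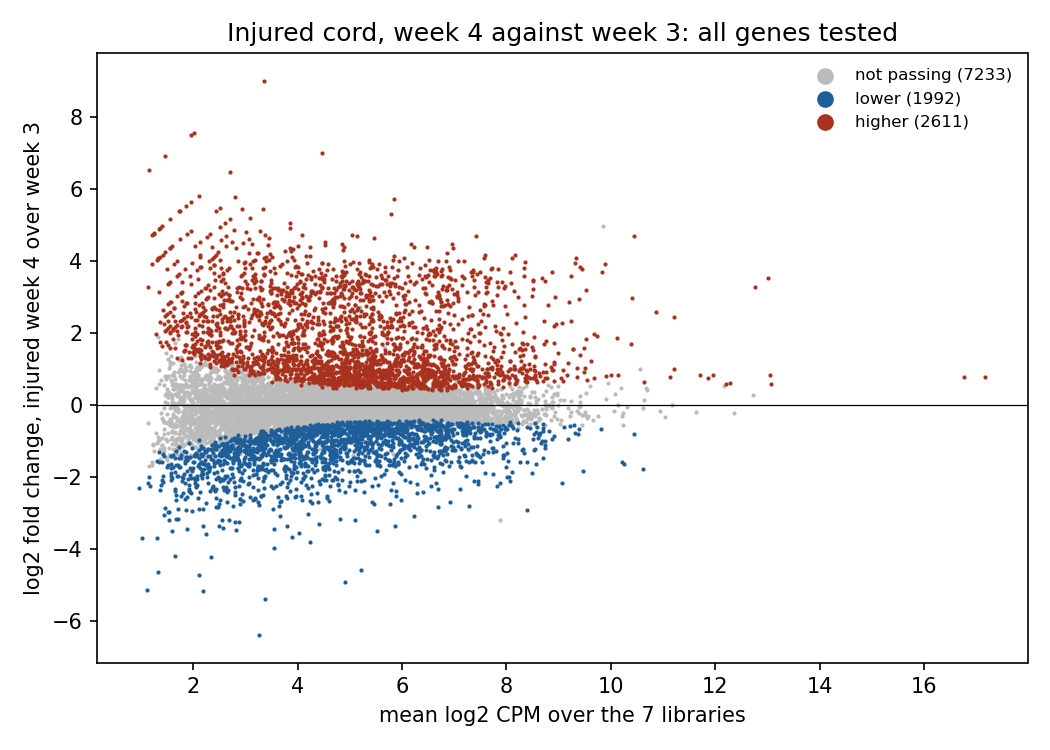
Log2 fold change of week 4 over week 3 in injured cord (vertical axis) against mean log2 CPM (horizontal axis), with 1 point per gene, for 11836 genes in 7 libraries. The 2611 genes that rose reach further from 0 than the 1992 that fell, at low and at high levels alike.

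Libraries of the 2 weeks did not overlap for 5336 of the 11836 genes, or 45.1%. Among the genes called by the test this held for 2472 of the 2611 that rose and 1873 of the 1992 that fell. The test and the overlap use the same libraries, so a high share among called genes was fixed in large part by the calls. With TMM scaling, the balance leaned further to rises among well expressed genes. The level is the mean over the same 7 libraries, so a rise by itself moves a gene towards the higher levels. The split by level was not repeated under upper quartile scaling, which turned the balance over all genes to falls. In the tercile of genes with the highest mean levels, 1011 rose and 642 fell, and 61.2% of the called genes were higher at week 4. In the lowest tercile 749 rose and 669 fell, and the share was 52.8%. Few genes met a strict rule for a switch from no counts at all, which a single read in any library of the silent week is enough to fail. Of the 32545 genes in the table, 3 had 0 counts in all week 3 libraries and at least 10 counts in every week 4 library, with 5.63 CPM (counts scaled to the library's size) at week 4 for the median of the 3. A count of 0 over the week 3 group allows up to 0.298 CPM, by a floor of 3 counts over the group and counting error only. The reverse pattern was seen for 0 genes.

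The called genes held a large part of the sequenced RNA, and the direction in which their shares moved is fixed by the calls. Genes that rose held 36.6%, 38.3% and 31.6% of all counts in the week 3 libraries and 56.4%, 64.5%, 53.7% and 55.8% in the week 4 libraries. Genes that fell held 17.3%, 16.6% and 19.97% at week 3 and 6.96%, 4.90%, 8.32% and 7.24% at week 4. A large piece came from a pair of very abundant genes, which together held 18.1% to 23.1% of counts at week 3 and 24.4% to 33.7% at week 4. On the log2 scale the first rose by 0.77 ± 0.257 (SE; edgeR adjusted p = 0.0271) and the second by 0.77 ± 0.218 (SE; edgeR adjusted p = 0.011). These fold changes use TMM-scaled totals, while the shares are of raw counts. The TMM factors had means of 1.158 at week 3 and 0.899 at week 4, which enlarges the fold changes relative to the shares. By raw share the first gene overlapped between the weeks, with 14.2% in week 3 replicate 2 and 13.5% in week 4 replicate 1. Without this pair the genes that rose held 13.5% to 15.1% of counts at week 3 and 27.9% to 32.0% at week 4. When the pair was removed before the fit, 4612 genes changed, 2586 higher and 2026 lower.

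The largest changes among well expressed genes are given by identifier, 2 that rose and 2 that fell. The gene ENSRNOG00000050647 was almost silent at week 3, with 0, 0.764 and 0 CPM in replicates 1, 2 and 4. It had 69.0, 34.2, 15.4 and 34.0 CPM in the 4 week 4 libraries. All week 4 libraries lay far above all week 3 libraries, although they differed among themselves. The means were 0.254 ± 0.441 CPM (SD, n = 3) and 38.1 ± 22.4 CPM (SD, n = 4), and the log2 fold change was 7.02 ± 0.77 (SE; edgeR adjusted p = 8.23e-06). Only 3 counts were found over the week 3 group against 527 at week 4, a ratio of 142 with a 95% exact binomial interval of 48.4 to 692 that covers counting error only. Without week 3 replicate 2, which held those 3 counts, the fitted log2 fold change was 10.12 against libraries at 0, and that value depends on the prior count.

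ENSRNOG00000018735 had 0.767, 2.04 and 2.65 CPM in the week 3 libraries and 122.3, 176.4, 40.7 and 56.9 CPM in the week 4 libraries. Here too the weeks did not overlap, and week 4 replicates 1 and 2 were more than 2-fold above replicates 3 and 4. The means were 1.82 ± 0.961 CPM (SD, n = 3) and 99.1 ± 62.5 CPM (SD, n = 4), with a log2 fold change of 5.74 ± 0.70 (SE; edgeR adjusted p = 0.000161).

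The 2 genes that fell were the largest falls under the naming rule, which asks for a mean log2 CPM of at least 4 and no overlap between the weeks. ENSRNOG00000013850 had 54.2, 81.2 and 59.4 CPM at week 3 and 2.95, 2.60, 1.17 and 1.95 CPM at week 4. The means were 64.9 ± 14.3 CPM (SD, n = 3) and 2.17 ± 0.784 CPM (SD, n = 4), a log2 fold change of -4.92 ± 0.28 (SE; edgeR adjusted p = 7.52e-08). ENSRNOG00000043219 had 82.8, 70.0 and 87.8 CPM at week 3 and 5.30, 1.95, 2.80 and 3.07 CPM at week 4. The means were 80.2 ± 9.19 CPM (SD, n = 3) and 3.28 ± 1.43 CPM (SD, n = 4), a log2 fold change of -4.60 ± 0.25 (SE; edgeR adjusted p = 7.52e-08). In both genes the lowest week 3 library was more than 10-fold above the highest week 4 library.

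The levels of these 4 genes in the other groups were compared on a common scale of 19 libraries. ENSRNOG00000050647 stood at 0.284 ± 0.0755 CPM in culture (SD, n = 4), 0.263 ± 0.455 in injured week 3 (SD, n = 3), 38.95 ± 22.59 in injured week 4 (SD, n = 4), 196 ± 22.8 in uninjured week 3 (SD, n = 4) and 95.4 ± 22.7 in uninjured week 4 (SD, n = 4). Injured week 3 overlapped with culture, and injured week 4 below both uninjured groups without overlap. ENSRNOG00000018735 had the same low and the same high groups, but another order of means within them. It stood at 1.63 ± 0.569 CPM in culture (SD, n = 4), 1.91 ± 1.04 in injured week 3 (SD, n = 3), 101.3 ± 63.7 in injured week 4 (SD, n = 4), 206.6 ± 103.2 in uninjured week 3 (SD, n = 4) and 287.7 ± 110.4 in uninjured week 4 (SD, n = 4). Its injured week 4 libraries reached 180.5 CPM and overlapped with the uninjured ones, the lowest of which had 111.8 CPM.

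The genes that fell differed from one another in culture. ENSRNOG00000043219 was highest there, at 604 ± 75.3 CPM (SD, n = 4), intermediate in injured week 3 at 83.86 ± 10.99 (SD, n = 3), and low in injured week 4 at 3.36 ± 1.44 (SD, n = 4). That last level overlapped with uninjured week 3 at 1.70 ± 0.565 and uninjured week 4 at 3.02 ± 1.22 CPM (SD, n = 4 each). ENSRNOG00000013850 had its highest mean of the 5 groups in injured week 3, at 67.75 ± 14.45 CPM (SD, n = 3). It had 5.14 ± 4.945 CPM in culture, where 1 library had 12.6 CPM, and 2.22 ± 0.789 in injured week 4 (SD, n = 4 each). Only 1 and 3 counts were found over the 4 libraries of uninjured week 3 and of uninjured week 4.

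**Figure D2:**
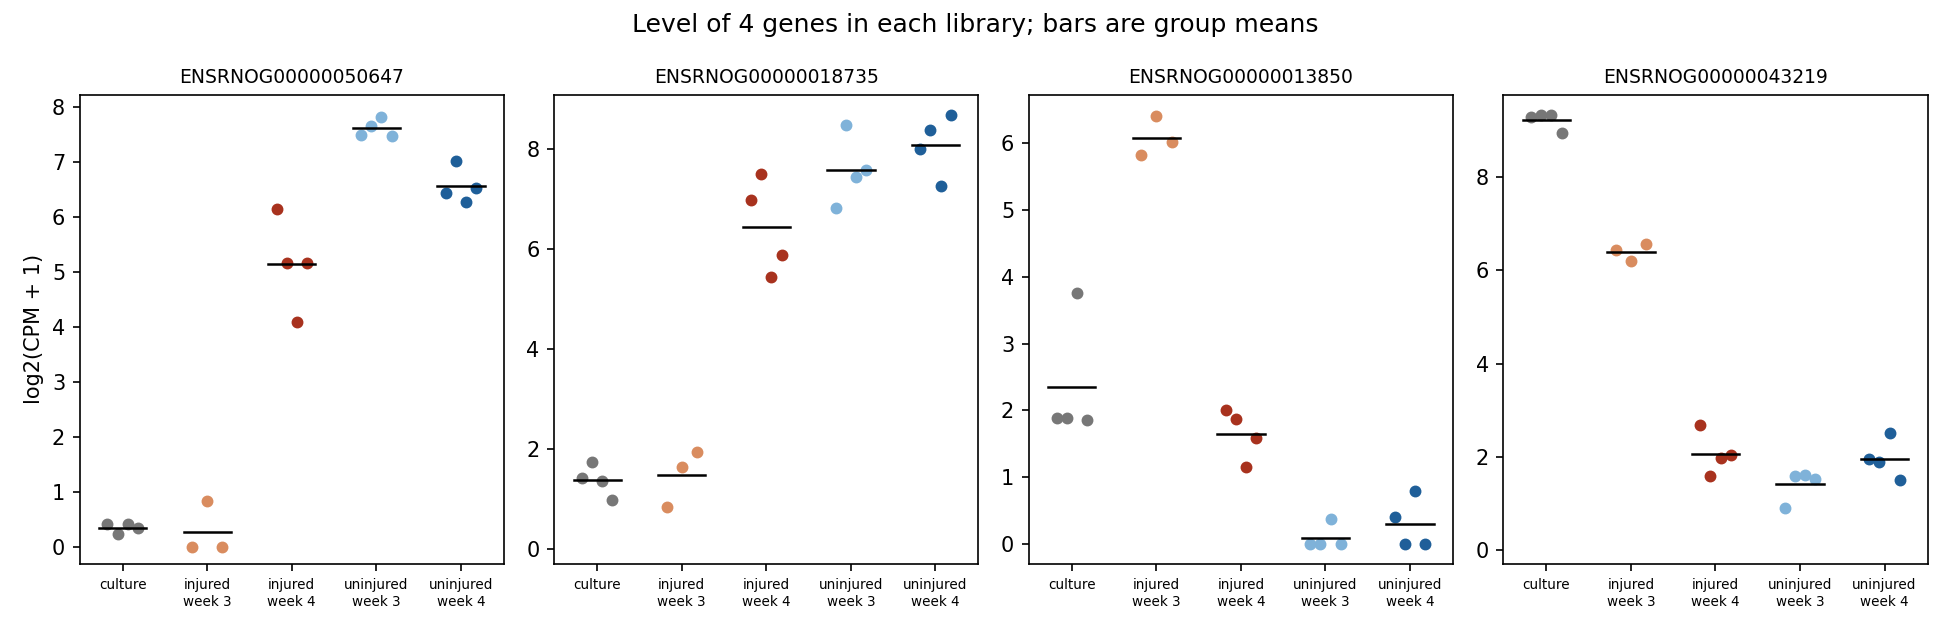
Level of the 4 genes as log2(CPM + 1) on the 19-library scale (vertical axis) in culture, injured and uninjured groups (horizontal axis), with 1 point per library and a bar at the group mean of the plotted values. The genes ENSRNOG00000050647 and ENSRNOG00000018735 are low in culture and injured week 3 and high in the other 3 groups, while ENSRNOG00000013850 has its highest values in injured week 3.

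The levels of all changed genes were then set beside those of culture and uninjured cord. Genes that rose had a median level of 3.95 in injured week 3 and 5.51 in injured week 4, as group means of log2(CPM + 1). The same genes had a median of 4.18 in culture, 5.72 in uninjured week 3 and 5.57 in uninjured week 4. Genes that fell had medians of 5.25 and 4.13 in injured weeks 3 and 4, against 4.99 in culture and 3.46 and 3.63 in uninjured weeks 3 and 4. The medians over all genes tested lay between 4.65 and 4.78 in the 5 groups. The genes were chosen on the injured values, and the culture and uninjured values did not enter the choice.

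**Figure D3:**
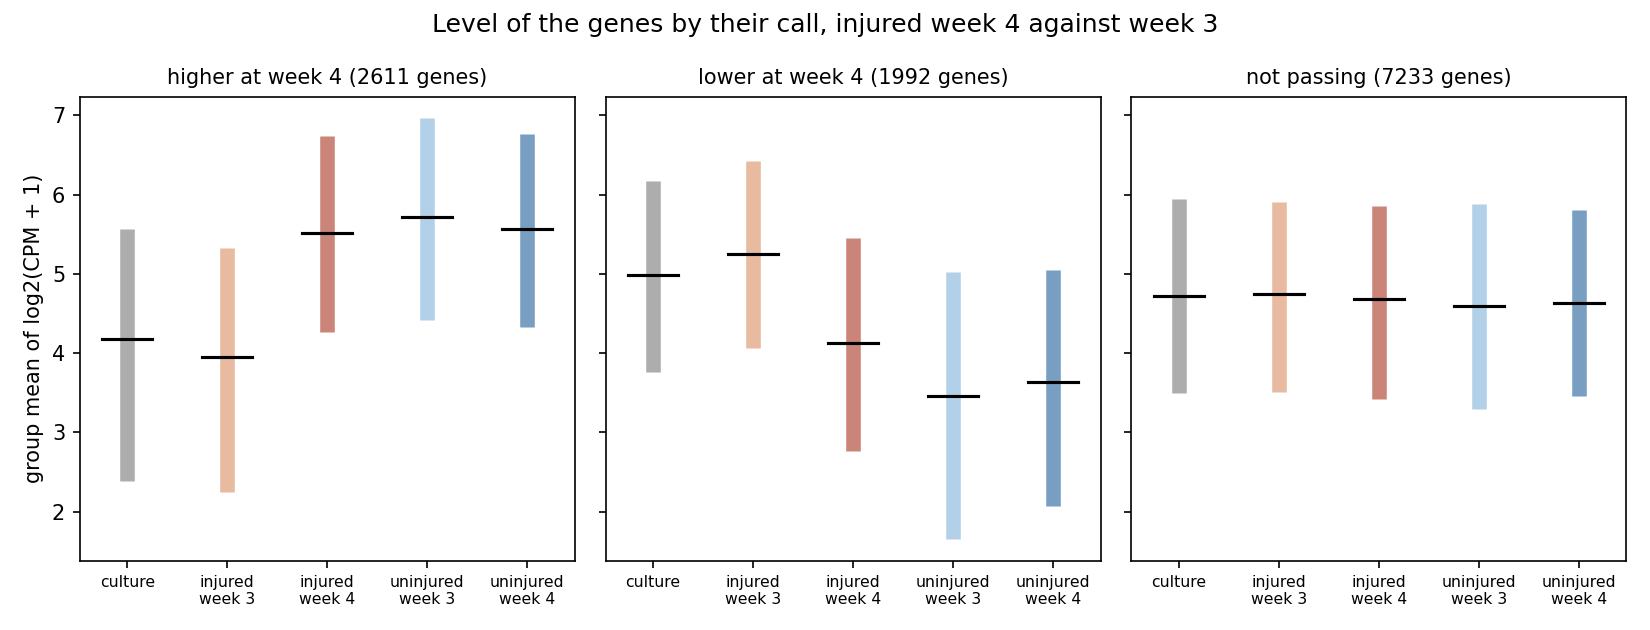
Group means of log2(CPM + 1) on the 19-library scale (vertical axis) in culture, injured and uninjured groups (horizontal axis), for genes that rose, fell or did not pass the test between injured weeks 3 and 4; black bars are medians over genes and coloured bars run from the 25th to the 75th percentile. Genes that rose have a median of 5.51 in injured week 4, near the 5.57 of uninjured week 4, and genes that fell have 4.13, between 4.99 in culture and 3.63 in uninjured week 4.

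Of the 2611 genes that rose, 70.8% were within 2-fold of culture at week 3 and 43.2% at week 4, while 34.2% were within 2-fold of the uninjured mean at week 3 and 72.6% at week 4. Of the 1992 that fell, 66.2% were within 2-fold of culture at week 3 and 56.4% at week 4, and 33.1% and 60.6% were within 2-fold of the uninjured mean. Over all genes tested the shares were 81% and 72.6% for culture and 63.4% and 78.8% for uninjured cord. Smaller groups followed neither reference. Among genes that rose, 4.63% had an injured week 4 mean at least 2-fold above all 4 other groups. Among genes that fell, 3.97% had an injured week 4 mean at least 2-fold below all others. A further 13.3% of the genes that fell had an injured week 3 mean at least 2-fold above all others, the pattern of ENSRNOG00000013850, and 10.6% of those that rose had an injured week 3 mean at least 2-fold below all others. Over all genes tested these shares were 1.02%, 0.701%, 2.3% and 2.39%. Each pattern asks for an at least 2-fold difference between the injured weeks in the direction of the call. The excess over all genes is therefore fixed in large part by the choice of genes. The shares describe group means on 1 scale and carry no test.

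Uninjured cord was compared with culture in a separate fit of 12 libraries, none of them used in the injured comparison, which called 9409 of 13148 genes (71.6%; edgeR adjusted p under 0.05). Of these genes, 1846 were at least 4-fold higher in uninjured cord (14% of genes tested) and 1126 at least 4-fold lower (8.56%). They are called cord-high and culture-high genes here. In an injured fit with no filter on low counts, 1156 of the 1846 cord-high genes rose between weeks 3 and 4 (62.6%) and 38 fell. Of the 1126 culture-high genes, 686 fell (60.9%) and 35 rose. Over all 19663 genes of that fit, 2874 rose and 2187 fell. This baseline is not a like one, since it includes genes with too few counts for the fit of uninjured cord against culture. The rises and falls among the 13097 genes in both fits are not given. With the filter, 1211 cord-high genes were tested, of which 1029 rose (85%), with a median log2 fold change of 2.59 (quartiles 1.40 and 3.39), and 908 culture-high genes, of which 633 fell (69.7%), with a median of -1.19 (quartiles -1.71 and -0.60). Over the 11631 genes tested in both fits, 22.2% rose, 16.5% fell and the median was -0.01. The filter shapes the filtered shares, since a cord-high gene that was low at week 3 could enter only through a higher week 4 level. The 635 cord-high genes that did not enter had a median of 15 counts over the 7 injured libraries together.

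Read the other way, cord-high genes made up 39.9% of the genes that rose and culture-high genes 32.9% of those that fell, among genes in both fits. Over the alternatives these shares ran from 35.8% to 58.8% and from 25.3% to 50.8%, and both were above 50% with depth as a covariate. Of the 516 genes that rose at least 8-fold and were in both fits, 471 were cord-high (91.3%), against 10.4% of all genes in both fits. With no filter 555 of 616 were cord-high (90.1%), against 13.8% of 13097 genes. Across the 11631 genes, the injured week 4 over week 3 change and the uninjured over culture difference had a Pearson correlation of 0.721 and a Spearman correlation of 0.593. The points are genes, which are not independent replicates, and the libraries behind both measures are different ones. Only genes that passed the filters of both fits enter, so cord-high genes that stayed low in injured cord are largely missing. No correlation without the filter is given.

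**Figure D4:**
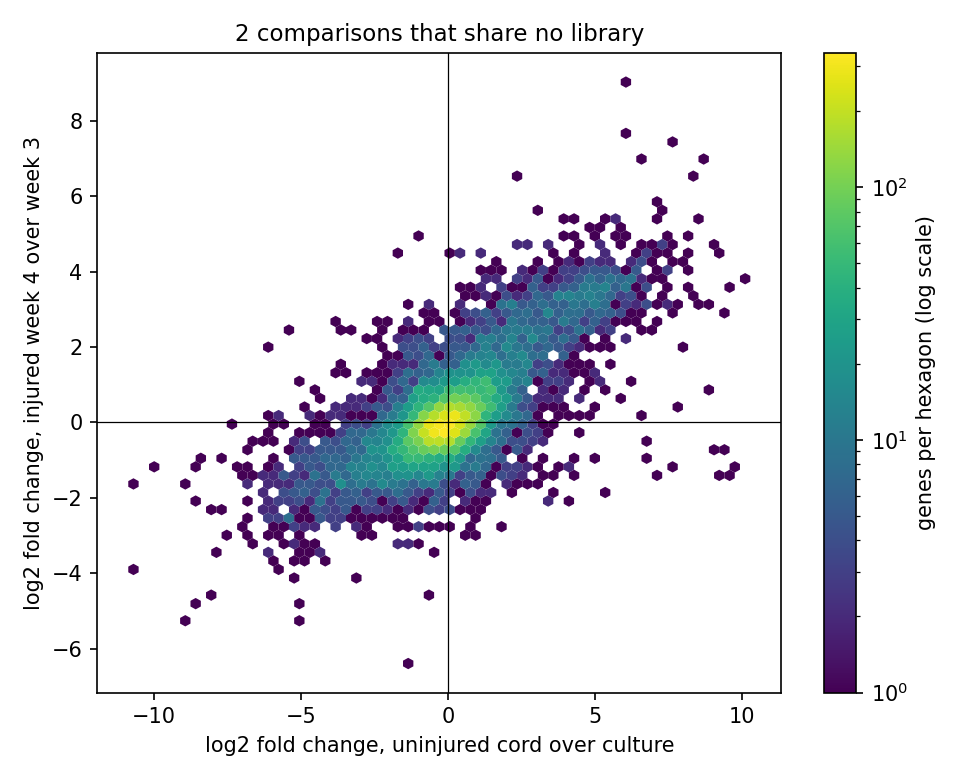
Log2 fold change of injured week 4 over week 3 (vertical axis) against that of uninjured cord over culture (horizontal axis) for 11631 genes, with colour for the number of genes per hexagon on a log scale. Most genes far to the right lie above 0 and most far to the left lie below it, with a Pearson correlation of 0.721. Genes that failed the filter of either fit are not shown, among them 635 cord-high genes.

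The levels of both whole lists were also followed library by library, with no filter on the injured libraries. The median log2(CPM + 1) of the 1846 cord-high genes was 1.86, 1.75 and 1.58 in the week 3 libraries and 3.56, 3.50, 3.23 and 3.34 in the week 4 libraries. It ran from 1.33 to 1.39 in culture and from 4.39 to 4.89 over the 8 uninjured libraries. The median of the 1126 culture-high genes was 4.18, 4.14 and 4.197 at week 3 and 2.81, 2.87, 3.09 and 3.07 at week 4, with 4.58 to 4.64 in culture and 1.13 to 2.42 in uninjured cord. The 2.42 was that of uninjured week 4 replicate 3, and the other uninjured libraries had 1.13 to 1.75. That library had the fewest counts of the uninjured ones used here (2605188) and the most genes detected of all 28 libraries (20098). Both lists were chosen for the distance between uninjured cord and culture, so that the outer places of these references are fixed by the choice. The injured libraries did not enter it, and the weeks did not overlap in either list. At week 3, 93% of cord-high genes and 69.2% of culture-high genes were nearer to culture than to the uninjured mean. At week 4 these shares were 42.3% and 40.2%. Among the genes that passed the filter of the injured fit, they were 89.8% and 83.3% at week 3 and 19.8% and 49.6% at week 4. The shares of both weeks thus depend on the filter.

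**Figure D5:**
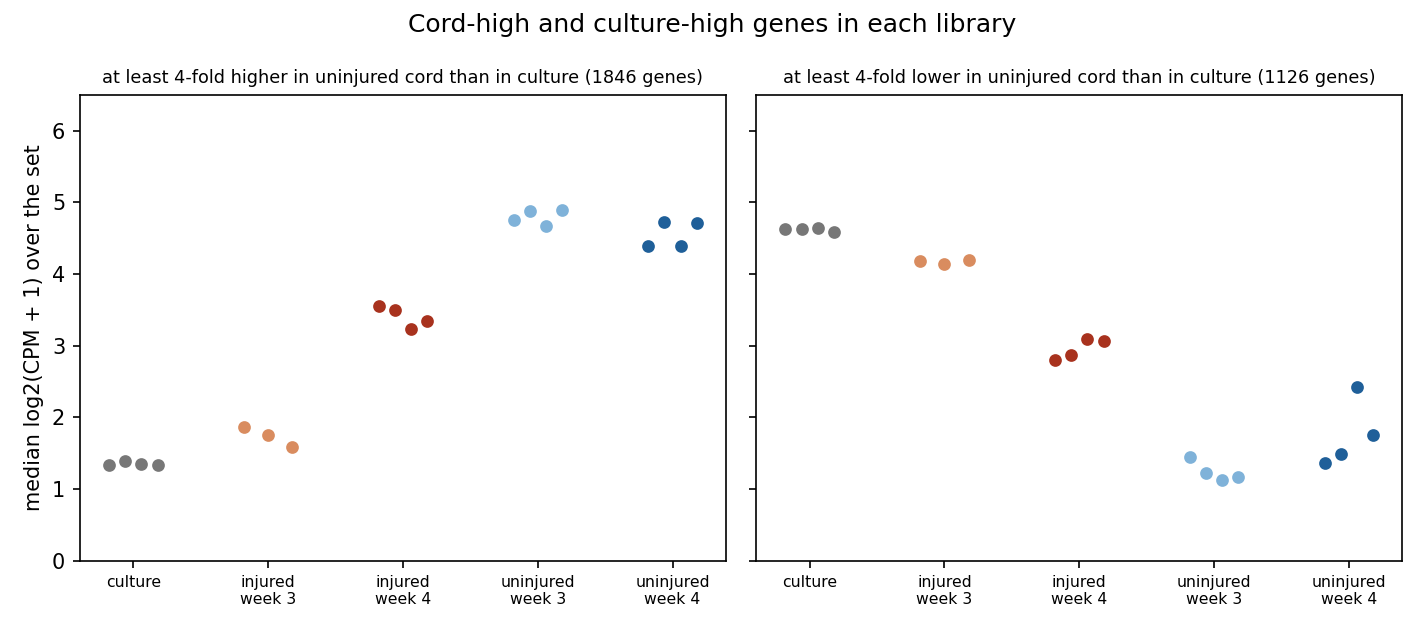
Median log2(CPM + 1) on the 19-library scale (vertical axis) of all 1846 cord-high genes and all 1126 culture-high genes in each library of culture, injured and uninjured groups (horizontal axis), 1 point per library. Week 4 injured libraries lie at 3.23 to 3.56 for cord-high genes, above week 3, and at 2.81 to 3.09 for culture-high genes, below week 3.

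Uninjured cord over the same interval gave a smaller and less stable set of changes. In a fit of 15 libraries with injured and uninjured groups together, 823 of 13129 genes changed between uninjured weeks 3 and 4 (6.27%; edgeR adjusted p under 0.05), 403 higher and 420 lower at week 4. In the same fit 4733 genes changed in injured cord, 2711 higher and 2022 lower. The uninjured count moved by over 1.5 times when single libraries were left out. It was 487, 99, 1853 and 71 without uninjured week 3 replicates 1 to 4, 220, 139 and 406 without uninjured week 4 replicates 1, 3 and 4, and 510 without injured week 4 replicate 4.

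The change itself differed between injured and uninjured cord for 4036 of 13129 genes (30.7%; edgeR interaction test, adjusted p under 0.05). The difference was above 0 for 2372 genes, with a median log2 change of 1.81 in injured and -0.32 in uninjured cord. It was below 0 for 1664 genes, with medians of -1.16 and 0.62. Choosing genes on the difference in part sets the signs of these medians. Of the 2611 genes that rose in injured cord, 1984 differed from uninjured cord in that direction, as did 1222 of the 1992 that fell. The same injured libraries enter the choice of these genes and the interaction, so a large share was fixed by the choice. The uninjured change uses other libraries. Of the genes that rose, 76 also rose there and 216 fell, and of the genes that fell, 24 also fell there and 137 rose. As shares, 2.91% of the genes that rose in injured cord also rose in uninjured cord and 8.28% fell there, and 1.2% of those that fell also fell and 6.88% rose, against 3.07% higher and 3.2% lower over all 13129 genes. The injured and uninjured changes come from separate libraries and had a Pearson correlation of -0.247 across 13129 genes, with -0.214 by Spearman. Upper quartile scaling turned the balance of the interaction to 2012 above and 2408 below 0.

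All 4 genes given by identifier passed the interaction test, which reuses the injured libraries on which they were chosen. The injured change exceeded the uninjured one by 8.03 on the log2 scale for ENSRNOG00000050647 (standard error 0.75, edgeR adjusted p = 1.31e-07), whose log2 change in uninjured cord was -1.03 (standard error 0.30, edgeR adjusted p = 0.0474). The difference was 5.22 for ENSRNOG00000018735 (standard error 0.81, edgeR adjusted p = 0.000101) and -5.52 for ENSRNOG00000043219 (standard error 0.49, edgeR adjusted p = 6.52e-08). For ENSRNOG00000013850 it was -6.34 (standard error 1.54, edgeR adjusted p = 0.00341), from 4 counts over the 8 uninjured libraries, so that this value depends on the prior count. The uninjured changes of these last 3 genes did not pass the test, at log2 values of 0.49, 0.89 and 1.39 (edgeR adjusted p = 0.488, 0.15 and 0.475).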

How the data were processed

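RNA was measured in 28 libraries in 7 groups of 4. Trizol extraction, DNase treatment and a stranded total RNA kit were used, per the labels' protocols. The submitters' processing notes name featureCounts 1.5.1 and STAR 2.5.1 beside StringTie 1.3.3, Picard, Trim Galore 0.4.1 and FastQC 0.11.5, and a mouse build, although organism and identifiers are rat. The sources used here do not give the annotation release, the strand setting or what was done with duplicate or shared reads, so values of paralogs and overlapping genes are uncertain. The authors deposited raw counts per gene, not normalized. No molecular identifiers are mentioned, so reads may repeat molecules.

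Changes were tested by the robust quasi-likelihood F test of edgeR 4.0.16 (R 4.3.3), with TMM factors, filterByExpr by group and Benjamini-Hochberg adjustment over all genes tested. The injured comparison used 7 libraries alone (5 residual degrees of freedom), the uninjured comparison and the interaction 15 libraries, and uninjured cord against culture 12. Standard errors are the fold change divided by the root of F. CPM use TMM-scaled totals. The scripts were tested on simulated data. Alternatives used DESeq2 1.42.0, voom of limma 3.58.1, RLE or upper quartile factors, other filters, a fold threshold, a depth covariate, other sets of libraries and each library left out. Replicate numbers follow accession order and pair no samples.

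The members, lists and tests were chosen with earlier results of these data known. Without symbols, the 51 gene and marker lists could not be run. The rule for naming genes (adjusted p under 0.05, mean log2 CPM of at least 4, no overlap between the groups, largest log2 fold change) was applied without its symbol condition, and 2 genes each way are printed instead of 12. The comparison of uninjured cord with culture and the sets made from it, and their levels without a filter, were added after the data were seen.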

Additional observations from a re-analysis of the deposited data

Results flagged for a closer look

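The change between weeks 3 and 4 differed between injured and uninjured cord for 4036 genes by the interaction test. Among the genes given by identifier the difference in log2 change was 8.03 for ENSRNOG00000050647, 5.22 for ENSRNOG00000018735, -6.34 for ENSRNOG00000013850 and -5.52 for ENSRNOG00000043219. These genes were chosen for large changes in the injured libraries that the interaction test reuses. The value of ENSRNOG00000013850 rests on 1 count in uninjured week 3 and 3 counts in uninjured week 4. Of 32 groups of 4 values examined, 5 had a library set apart by Dixon's ratio of gap to range, and about 1 in 20 is expected by chance. In injured week 4, the 100 most abundant genes held 52.5% of counts in replicate 2 and 41.6% to 43.2% in the others (ratio 0.852). ENSRNOG00000013850 had 12.6 CPM in 1 culture library and 2.61 to 2.71 in the others (ratio 0.99), and 1 count in 1 uninjured week 3 library with 0 in the others, which fixes the ratio at 1. ENSRNOG00000043219 had 492.5 CPM in 1 culture library and 627 to 650 in the others (ratio 0.857). The median level of the culture-high genes was 4.58 in 1 culture library and 4.63 to 4.64 in the others (ratio 0.831).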

How the results depend on the processing

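The injured count of 4603 stayed within 1.5 times in 16 of 19 alternatives, and was 3787 to 4902 when each of the 7 libraries was left out. It was 2710 when tested against a fold change of 1.5, 2318 with library depth (log2 total) as a covariate and 2736 with injured week 3 replicate 3. Within the limit, but close to it, was the fit of 27 libraries with 3078 genes, of which 2854 were shared with the main result. By limma voom the injured count was 5502. The interaction count of 4036 stayed within 1.5 times in all 25 alternatives run (2726 to 4929). The uninjured count of 823 was 1415 by DESeq2, 2755 by limma voom, 1821 with no low count filter, 11 against a fold change of 1.5, 411 with the covariate, 48 with injured week 3 replicate 3, 435 when the 8 uninjured libraries were fitted alone and 71 to 1853 when 1 library was left out. The share of called genes that were higher was 56.7%, 49% and 58.8% in the injured, uninjured and interaction tests, and 44.5%, 71.2% and 45.5% with upper quartile factors. All 4 genes given by identifier kept their direction and passed in each alternative in which they were tested, with log2 fold changes of 6.49 to 10.12, 5.16 to 7.06, -5.11 to -4.54 and -4.90 to -4.08 in the order of the report (adjusted p at most 0.0191). ENSRNOG00000013850 did not pass the filter with injured week 3 replicate 3. A fit without mitochondrial or ribosomal RNA genes needs symbols and was not run, and removal of the 2 most abundant genes was added after the data were seen. Where a count moved, the cause was not tested. No paired analysis was possible because the labels carry no replicate numbers. Genes with few counts in a group limit the precision, as for ENSRNOG00000050647 with 3 counts at week 3.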
